A study of Mus musculus with 12 samples.

Results

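DEAD and DEAH box proteins are enzymes that use ATP to open RNA duplexes or to strip proteins from RNA, and they are named after the amino acid letters of a conserved motif in their helicase core. DEAD box proteins typically open short duplexes locally, whereas DEAH box proteins typically travel along a strand. Together they serve nearly every step in the life of an RNA, from the assembly of ribosomes in the nucleolus and the remodelling of the spliceosome to mRNA export, translation, decay and the detection of viral RNA in the cytoplasm. The members described here are the genes with a symbol of *Ddx* or *Dhx* followed by a digit and a mean rlog value of at least 3 over the samples used. This rule reads the level of a gene and not its response, but the set was chosen with earlier results of these data known. The rlog value is a log2 expression value that the authors derived from read counts scaled for library size, with genes of few reads drawn towards their own mean. Of 54 genes with such a symbol, 50 passed, among 11536 genes tested of 41444 in the table. The other 4 lay far below the limit, with *Ddx4* at -1.96 and *Ddx3y* at -2.12 in every sample, and with *Ddx43* and *Dhx58os* listed at 0. Just inside the limit were *Ddx60* with a mean of 3.49, *Ddx11* with 4.20, *Dhx30* with 4.56 and *Ddx25* with 4.60. No member had a mean under 3 in either group.

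The samples are mouse bone marrow pre-B cells of *Ctnnb1* fl/fl genotype that were grown in IL7, transformed by retroviral BCR-ABL1 as a model of B cell acute lymphoblastic leukaemia (B-ALL), and then kept without IL7. All cells described carried the ERT2 vector without Cre, so that both copies of the β-catenin gene were left intact, and all, controls included, received 1 µM 4-OHT, a tamoxifen metabolite, for 2 days. The comparison asks how inhibition of GSK3β, a kinase that marks β-catenin for degradation, altered these cells: 3 samples also received the GSK3β inhibitor LY2090314 at 40 nM for 1 day by the sample labels, whereas a legend of the study gives a shorter exposure, and 3 control samples did not. The vehicle given to control cells is not stated, and cells with Cre are not analysed here.

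The 3 samples of each group come from 3 mice by the study's account, but the names of treated samples 1 and 2 share a library number, so the p-values measure a spread between samples that may in part be technical. Over members, these samples differed by a median of 0.0471 on the log2 scale, other samples of the same group by 0.0577 to 0.0913, and samples of different groups by 0.163 to 0.270. All 10 pre-B markers examined had a mean of at least 3, whereas none of the T cell, erythroid or stromal markers did, and of the myeloid markers only *Lyz2* passed. The summed level of the pre-B markers lay at 16.26 to 16.29 in control and at 15.64 to 15.79 in treated cells, and that of the myeloid markers at 5.83 to 6.04 in control and at 6.39 to 6.51 in treated cells, where *Csf1r*, *Itgam*, *Mpo* and *Elane* stayed below 3. The part of these shifts in the results that follow was not tested, and in such bulk samples fewer cells of a type and less RNA per cell cannot be told apart. Read counts are not given, so depth is unknown.

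After GSK3β inhibition, more DEAD and DEAH box transcripts fell than rose. Of 50 members, 17 fell, 5 rose and 28 did not pass the threshold (limma, Benjamini-Hochberg adjusted p under 0.05). The 22 members past the threshold make up 44.0%, against 50.1% of all genes tested. The members that fell make up 34.0% against 25.3% of all genes, and those that rose 10.0% against 24.8%. The median log2 difference, treated minus control, was -0.133 over the members (quartiles -0.289 and 0.037) and 0.012 over all genes (quartiles -0.23 and 0.254). Most changes were small: 40 of the 50 members differed by less than 0.5 in either direction, a share similar to that of all genes (9065 of 11536). The median size of a change past the threshold was 0.344 for members and 0.434 for all genes. Groups did not overlap in 30 of 50 members, a share near the 58.6% of all genes. Of these members, 22 were lower and 8 higher in treated cells. Over all genes, 29.5% were lower and 29.1% higher without overlap. An exact two-sided permutation test of a single gene cannot give a p below 0.10 with 3 samples against 3. By name, 14 of 34 *Ddx* members fell (41.2%) and 2 rose (5.88%). Of 16 *Dhx* members, 3 fell and 3 rose (18.8% each), so that falls outnumbered rises only among *Ddx* members. *Myc*, which encodes a transcription factor of growth genes, is given for context: its rlog value went from 11.79 ± 0.0417 (SD, n = 3) to 9.15 ± 0.0166 (SD, n = 3).

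**Figure D1:**
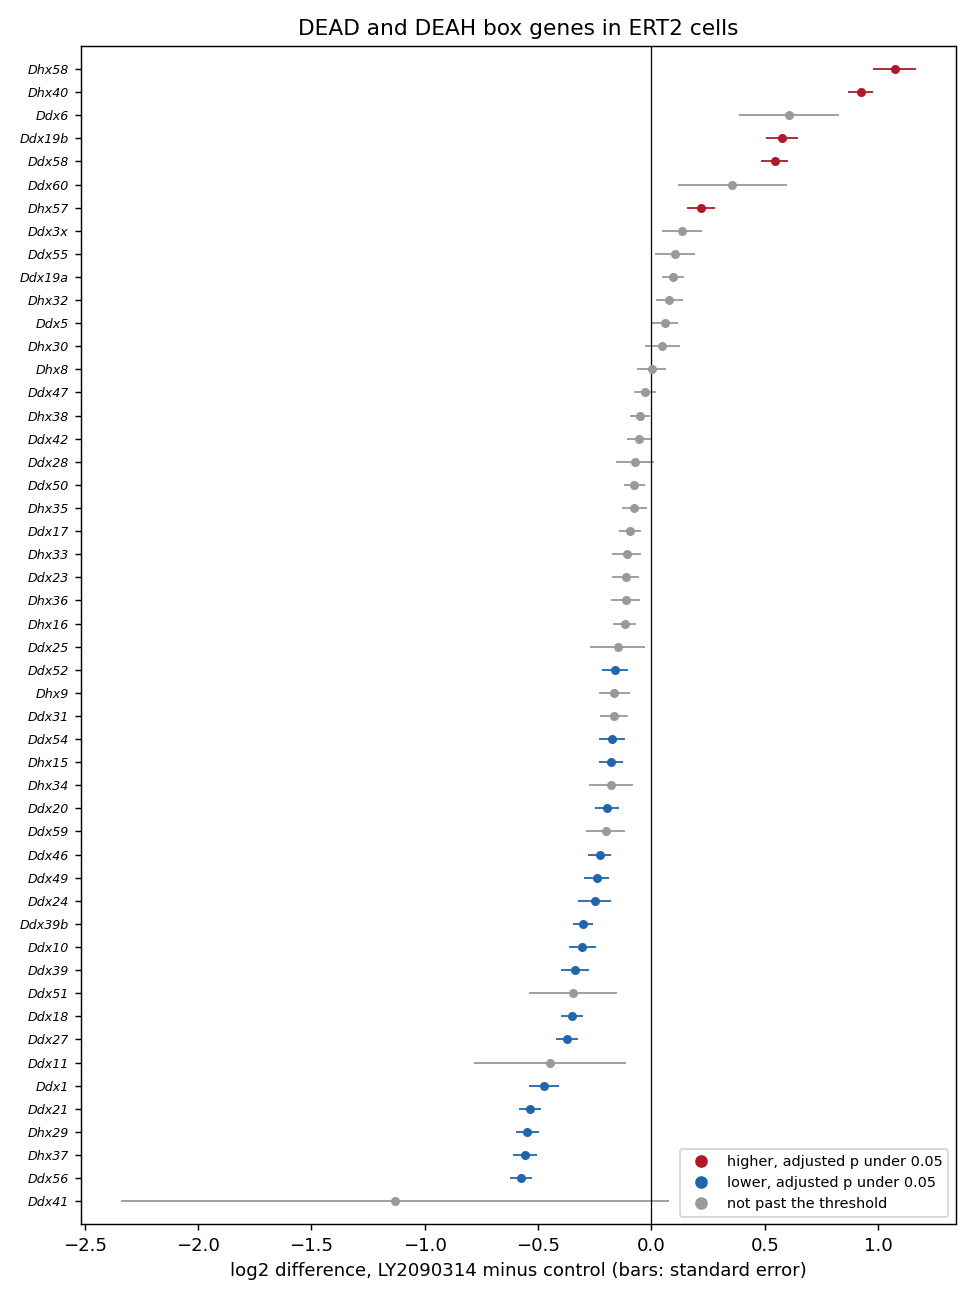
The log2 difference (x axis, LY2090314 minus control) of each of the 50 members (y axis), ordered by difference, with standard errors as bars. Blue points on the left are the 17 members that fell, red points on the right the 5 that rose, and grey points the 28 that did not pass the threshold, among them *Ddx41* with the widest bar.

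Each member was counted under a single role, so that *Ddx21* and *Dhx15*, which also serve ribosome production, are counted elsewhere. Of 13 members assigned to maturation of a ribosomal subunit, 9 fell, or 69.2% against 25.3% of all genes. None rose and 4 did not pass the threshold, with a median log2 difference of -0.251 and with 12 of 13 differences below 0. Among the 5 of the small subunit, 4 fell and the median was -0.242. Among the 8 of the large subunit, 5 fell and the median was -0.298. The large subunit had 3 calls in place of 5 when control sample 3, treated sample 1 or treated sample 2 was left out. Without treated sample 3 it had 6, as *Ddx55* then passed as a rise (log2 difference 0.19, limma adjusted p = 0.0482). *Ddx31* passed as a fall after median centring and after quantile normalization.

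*Ddx56*, which acts in maturation of the large subunit (chromosome 11 of GRCm38, 6258919 to 6267772, minus strand), had rlog values of 10.50, 10.47 and 10.56 in control and 9.90, 9.97 and 9.93 in treated cells. The groups lay well apart, and this fall, -0.58 (standard error, SE, 0.0493, limma adjusted p = 4.92e-05), was the largest of the members past the threshold. *Dhx37*, which helps to release the U3 RNA from the small subunit precursor (chromosome 5, 125413858 to 125434121, minus strand), had 10.57, 10.55 and 10.54 in control and 9.95, 9.95 and 10.08 in treated cells. Its log2 difference was -0.56 (SE 0.0531, limma adjusted p = 8.93e-05), with control samples that were nearly identical.

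*Ddx27*, of the large subunit, had rlog values of 11.11, 11.13 and 11.23 in control and 10.79, 10.76 and 10.80 in treated cells (log2 difference -0.37, limma adjusted p = 0.000466). *Ddx18*, also of the large subunit, had 11.27, 11.35 and 11.26 in control and 10.89, 10.95 and 10.99 in treated cells (log2 difference -0.35, limma adjusted p = 0.00076). All treated samples of both genes lay below all control samples. *Ddx10*, of the small subunit, had 10.89, 10.70 and 10.77 in control and 10.46, 10.48 and 10.51 in treated cells, a log2 difference of -0.30 (limma adjusted p = 0.00349). *Ddx49*, of the small subunit, had 10.04, 10.20 and 10.16 in control and 9.90, 9.89 and 9.88 in treated cells, a log2 difference of -0.24 (limma adjusted p = 0.00829). In *Ddx10* and *Ddx49* the treated samples were tight and the control samples more spread.

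Exons of *Ddx49* overlap those of *Homer3* on the other strand over 874 bases, or 29.8% of its exon bases, and the mean of *Homer3* went from 8.44 to 9.18, in the opposite direction. The library kit keeps the strand of the RNA, but the strand setting of the quantification is not stated. In all, 7 members share exon bases with a gene on the other strand that has a mean of at least 3. *Ddx24*, *Ddx54* and *Ddx52* fell by 0.25, 0.17 and 0.16 on the log2 scale (limma adjusted p = 0.0226, 0.0347 and 0.0484), and each lost its call in at least 3 of the 6 fits that left out a sample. *Ddx31*, *Ddx51*, *Ddx47* and *Ddx55* did not pass the threshold. Their log2 differences ran from -0.35 for *Ddx51* to 0.10 for *Ddx55*.

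*Ddx21*, a nucleolar helicase that acts in both transcription and processing of ribosomal RNA, was among the falls, whereas its close relative *Ddx50* did not pass the threshold. The pair lies side by side on chromosome 10, *Ddx21* from 62580251 to 62602281 and *Ddx50* from 62615895 to 62651218, both on the minus strand. *Ddx21* had rlog values of 13.43, 13.38 and 13.34 in control and 12.82, 12.86 and 12.87 in treated cells, a log2 difference of -0.53 (SE 0.0493, limma adjusted p = 7.51e-05). *Ddx50* had 10.33, 10.27 and 10.27 in control and 10.18, 10.24 and 10.22 in treated cells, a log2 difference of -0.08 (limma adjusted p = 0.214). Treated and control samples of *Ddx50* lay close together. *Dhx33*, also nucleolar, had a log2 difference of -0.11 and did not pass the threshold.

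**Figure D2:**
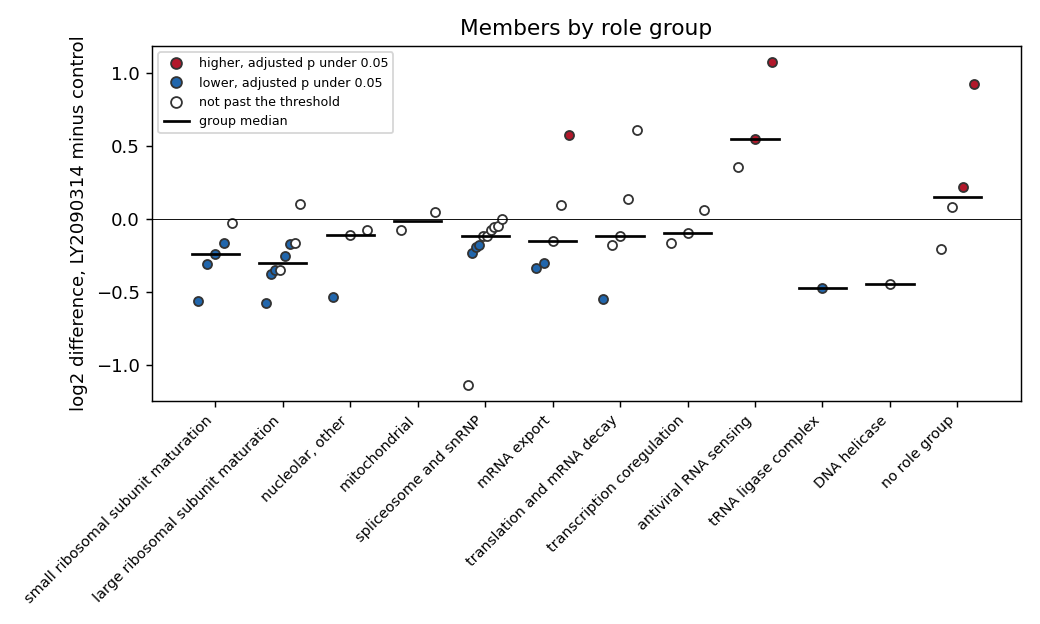
The log2 difference (y axis, LY2090314 minus control) of each member by role (x axis), with black lines for the median of each role. Blue points are falls, red points rises and open points members that did not pass the threshold: blue points gather in both ribosomal groups, and red points appear in antiviral sensing, mRNA export and among members without an assigned role.

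In the spliceosome and in the assembly of its small nuclear ribonucleoproteins, 3 of 10 members fell, none rose and 7 did not pass the threshold, with a median log2 difference of -0.115. The share that fell, 30.0%, was near the 25.3% of all genes, and the share past the threshold in either direction was below the 50.1% of all genes. *Ddx46*, which acts in assembly of the pre-spliceosome, had rlog values of 12.65, 12.59 and 12.63 in control and 12.33, 12.39 and 12.47 in treated cells (log2 difference -0.23, limma adjusted p = 0.00763). *Ddx20* (Gemin3), of the SMN complex that builds snRNPs, had 10.10, 10.03 and 10.10 in control and 9.90, 9.82 and 9.93 in treated cells (log2 difference -0.19, limma adjusted p = 0.0176). *Dhx15*, which disassembles spliceosomes and also serves ribosome maturation, had 12.72, 12.69 and 12.68 in control and 12.44, 12.54 and 12.59 in treated cells (log2 difference -0.18, limma adjusted p = 0.0259). The groups of all 3 genes were close but did not overlap. Without control sample 1 or treated sample 2, only *Ddx46* of these kept its call. The other DEAH box proteins that drive splicing, *Dhx8*, *Dhx16*, *Dhx35* and *Dhx38*, had log2 differences from -0.12 for *Dhx16* to 0.00 for *Dhx8* and did not pass the threshold, and the sign of *Dhx8* turned with the scaling.

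Among 5 members of mRNA export or related roles, 2 fell and 1 rose, where 25.3% of all genes fell and 24.8% rose. *Ddx39b* (UAP56), which couples splicing to export, had rlog values of 12.64, 12.68 and 12.70 in control and 12.39, 12.38 and 12.34 in treated cells, a log2 difference of -0.30 (limma adjusted p = 0.00091). Its relative *Ddx39* had 11.73, 11.74 and 11.82 in control and 11.34, 11.40 and 11.54 in treated cells, a log2 difference of -0.34 (limma adjusted p = 0.00272). Both genes fell without overlap. Exons of *Ddx39* overlap *Adgre5* on the other strand over 895 bases, or 17.4% of its exon bases, and the mean of *Adgre5* also went down, from 9.97 to 9.35.

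*Ddx19b*, which releases mRNA at the cytoplasmic face of the nuclear pore, had rlog values of 9.87, 9.74 and 9.62 in control and 10.36, 10.31 and 10.29 in treated cells. It rose by 0.58 (SE 0.0709, limma adjusted p = 0.000333), and treated samples were tighter than control samples. Its neighbour *Ddx19a* had 11.38, 11.39 and 11.44 in control and 11.45, 11.48 and 11.57 in treated cells, a log2 difference of 0.10 that did not pass the threshold (limma adjusted p = 0.140). Both genes lie on the minus strand of chromosome 8, *Ddx19a* from 110974996 to 110997800 and *Ddx19b* from 111003188 to 111031751.

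**Figure D3:**
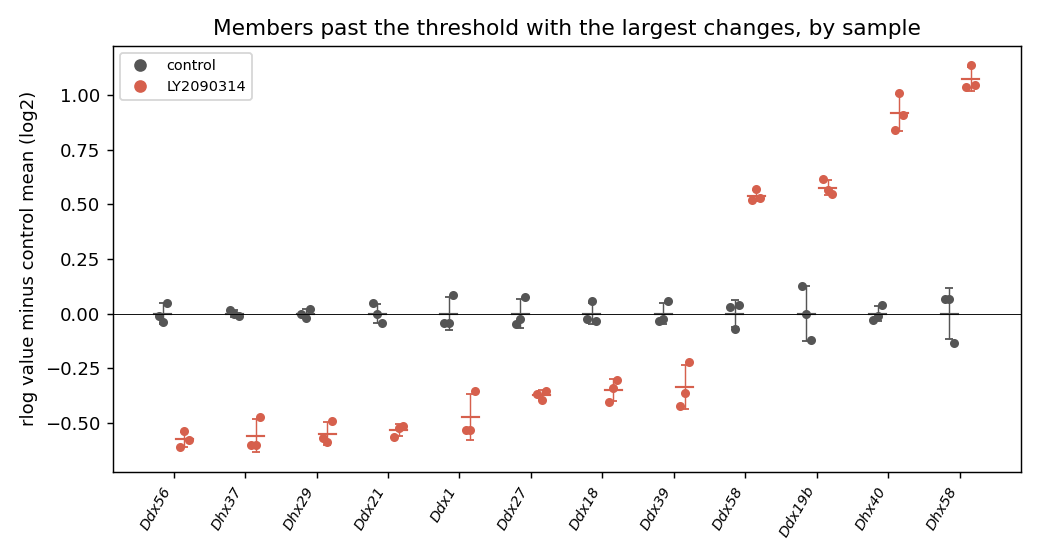
Values of 12 members past the threshold in each sample (y axis, rlog value minus the control mean of the gene; x axis, gene), with horizontal lines for the group mean and bars for the SD, n = 3. The treated samples of the 8 genes on the left all lie below the control samples, and those of *Ddx58*, *Ddx19b*, *Dhx40* and *Dhx58* all lie above them.

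Of 5 members of translation and mRNA decay, 1 fell and 4 did not pass the threshold, a share of 20.0% that fell against 25.3% of all genes. *Dhx29*, which helps the ribosome to scan structured mRNA leaders (chromosome 13, 112927454 to 112969432, plus strand), had rlog values of 10.27, 10.25 and 10.29 in control and 9.70, 9.68 and 9.78 in treated cells. Its log2 difference was -0.55 (SE 0.0503, limma adjusted p = 7.29e-05), and the spread within each group was small beside it. *Ddx3x*, a translation factor, had a mean of 13.78 ± 0.148 (SD, n = 3) in control and 13.91 ± 0.0957 (SD, n = 3) in treated cells, a log2 difference of 0.14 (limma adjusted p = 0.235) with groups that overlapped. Its Y-linked relative *Ddx3y* was below the limit in all 6 samples, so that the pair could not be compared. *Ddx1*, a subunit of the tRNA ligase complex (chromosome 12, 13216973 to 13249213, minus strand), had 12.16, 12.16 and 12.29 in control and 11.67, 11.67 and 11.85 in treated cells. It fell by 0.47 (SE 0.0669, limma adjusted p = 0.00071), and sample 3 was the highest in both groups.

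The transcriptional coregulators did not pass the threshold. *Ddx5* had rlog values of 14.49, 14.45 and 14.46 in control and 14.54, 14.56 and 14.50 in treated cells, with a log2 difference of 0.06 and a 95% confidence interval from -0.071 to 0.195. Its paralog *Ddx17* had 10.91, 10.92 and 10.82 in control and 10.79, 10.82 and 10.76 in treated cells, a log2 difference of -0.09 (limma adjusted p = 0.150). Treated samples of *Ddx5* lay just above its control samples, whereas the groups of *Ddx17* met. *Dhx9* had a log2 difference of -0.16 (limma adjusted p = 0.0868). The mitochondrial pair *Ddx28* and *Dhx30* had log2 differences of -0.07 and 0.05, and *Dhx30*, at a low level, turned sign under quantile normalization. In all, 16 members did not pass the threshold and had an interval within 0.3 of 0 on either side.

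Of 3 members that act in cytoplasmic sensing of viral RNA, 2 rose and 1 did not pass the threshold, where 24.8% of all genes rose. *Dhx58* (LGP2), which regulates signalling by the other sensors (chromosome 11, 100694884 to 100704271, minus strand), had rlog values of 6.06, 6.06 and 5.86 in control and 7.03, 7.13 and 7.04 in treated cells. It rose by 1.07 (SE 0.0934, limma adjusted p = 5.42e-05), or 2.10-fold, the largest difference of all members past the threshold. *Ddx58* (RIG-I), which detects viral RNA ends (chromosome 4, 40203773 to 40239828, minus strand), had 8.88, 8.78 and 8.89 in control and 9.37, 9.42 and 9.38 in treated cells. It rose by 0.54 (SE 0.0587, limma adjusted p = 0.000169). Treated samples of both genes lay well above control samples.

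*Ddx60*, another gene of antiviral sensing, is expressed near the lower limit and had 3.51, 3.22 and 3.19 in control and 3.49, 3.24 and 4.26 in treated cells. Its log2 difference of 0.36 did not pass the threshold (limma adjusted p = 0.253), and treated sample 3 alone stood above the control range. *Ifih1* (MDA5), a RIG-I-like receptor that is not a member by name, went the other way, with 5.97, 5.87 and 5.86 in control and 5.20, 5.33 and 5.57 in treated cells (log2 difference -0.54, limma adjusted p = 0.00523).

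*Dhx40*, to which no role was assigned here (chromosome 11, 86768846 to 86807746, minus strand), had rlog values of 10.33, 10.35 and 10.40 in control and 11.20, 11.37 and 11.27 in treated cells. It rose by 0.92 (SE 0.0556, limma adjusted p = 7.31e-06), or 1.90-fold, with the lowest adjusted p of all members. *Dhx57*, likewise without an assigned role, had 8.73, 8.79 and 8.83 in control and 9.03, 9.04 and 8.95 in treated cells, a log2 difference of 0.22 (limma adjusted p = 0.0192). The rise of *Dhx57* is the smallest of the 5, and it lost its call without control sample 1 or 2 or treated sample 1 or 2. Exons of *Dhx57* overlap *Morn2* on the other strand over 135 bases, and the mean of *Morn2* also went up, from 3.58 to 4.36. *Dhx32* and *Ddx59* had log2 differences of 0.08 and -0.20 and did not pass the threshold.

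Promoters of the members were searched for a pair of short motifs, from 250 bases before to 50 after each RefSeq start (GRCm38.p6). Promoters were found for 44 of 50 members, in 55 windows. The palindrome CACGTG, the E-box bound by MYC and related factors, was in 7.15% of all 32851 promoters and in 6 of 55 member promoters (10.9%), belonging to *Dhx35*, *Ddx25*, *Dhx33*, *Dhx40*, *Ddx42* and *Ddx5*. None of the 16 members that fell and had a promoter held it, and 1 of 4 that rose did, *Dhx40*. These counts are small beside a share of 7.15% and were not tested, and sites outside the windows were not searched. The core GAAANNGAAA of interferon response elements, read on both strands, was chosen after the values were seen. It was in 3.44% of all promoters and in 4 of 55 member promoters (7.27%), those of *Ddx58*, *Ddx60* and *Ddx49*. The site of *Ddx49* lies in overlapping windows and was counted in each, so that by gene 3 of 44 members held the core. Among members with a promoter, 1 of 16 that fell held it, *Ddx49*, and 1 of 4 that rose, *Ddx58*. *Ddx60* did not pass the threshold. The next lines show, 5′ to 3′ on the strand of the gene and with the motif in capitals, the E-box of the riser *Dhx40*, a pair of interferon response cores before *Ddx60*, and the core before *Ddx49*, which fell. A match is a run of letters and not a measured binding site.
*Dhx40*, chr11:86807746-86807805, minus strand: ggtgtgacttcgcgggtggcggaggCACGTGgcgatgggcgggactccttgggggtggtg
*Ddx60*, chr8:61928027-61928086, plus strand: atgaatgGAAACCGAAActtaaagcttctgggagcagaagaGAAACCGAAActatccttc
*Ddx49*, chr8:70302662-70302721, minus strand: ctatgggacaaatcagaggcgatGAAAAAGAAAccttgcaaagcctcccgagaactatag

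Paralogs were also compared within each sample, as the difference of their rlog values, which cancels a shift common to both genes but keeps any difference in length. *Ddx21* minus *Ddx50* was 3.10, 3.11 and 3.07 in control and 2.63, 2.62 and 2.65 in treated cells, a change of -0.459 with no overlap. *Ddx19b* minus *Ddx19a* was -1.50, -1.66 and -1.82 in control and -1.09, -1.18 and -1.28 in treated cells, a change of 0.481 with no overlap. *Ddx17* minus *Ddx5* was -3.586 ± 0.0537 (SD, n = 3) in control and -3.741 ± 0.00513 (SD, n = 3) in treated cells, a change of -0.155 with no overlap. Treated and control samples of these 3 pairs thus lay apart. *Ddx39* minus *Ddx39b* was -0.906 ± 0.0304 (SD, n = 3) in control and -0.942 ± 0.133 (SD, n = 3) in treated cells, and the groups overlapped. The exact two-sided permutation p was 0.10 for the first 3 pairs, the smallest this design allows, and 0.70 for the last; adjusted over the 4 pairs the values were 0.133 and 0.70. Reads shared by near-identical stretches could be split between such genes.

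**Figure D4:**
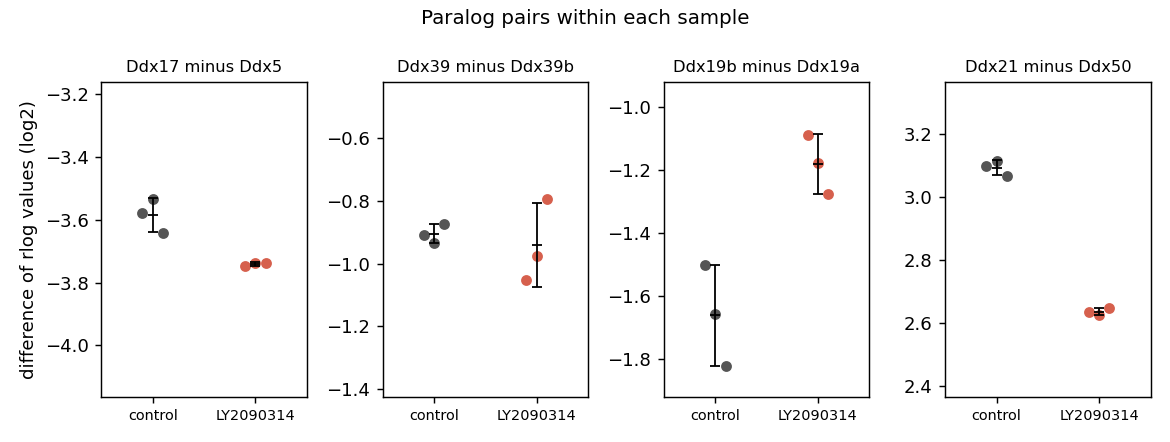
The difference of rlog values within each sample (y axis, log2) for 4 paralog pairs in control and LY2090314-treated cells (x axis), with the group mean and SD, n = 3; each panel spans the same height with its own offset. The groups are apart for *Ddx17* minus *Ddx5*, *Ddx19b* minus *Ddx19a* and *Ddx21* minus *Ddx50*, and overlap for *Ddx39* minus *Ddx39b*.

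Members were steady within groups, with a median SD of 0.0618 against 0.0973 for all genes. These medians were not matched for expression level, and only 4 members had a mean under 5. Still, 5 members, named after their values were seen, had an SD over 0.3 in a group. *Ddx41*, a helicase of the spliceosome and of DNA sensing (chromosome 13, 55530410 to 55536658, minus strand), had rlog values of 5.61, 9.69 and 8.67 in control and 9.16, 5.69 and 5.73 in treated cells. High and low samples were present in both groups, up to 4.08 apart. The log2 difference of -1.13 had a standard error of 1.21 (limma adjusted p = 0.466), so that *Ddx41* gives no direction despite the largest mean difference of all members. *Ddx6*, which represses translation and promotes decapping of mRNA, had 11.23, 11.61 and 10.66 in control and 11.82, 11.95 and 11.55 in treated cells. Its log2 difference of 0.61 had a 95% confidence interval from 0.096 to 1.118 and an adjusted p of 0.051 (limma), and it passed the threshold without control sample 2 (limma adjusted p = 0.0115) or treated sample 3 (limma adjusted p = 0.0398) and not without any other sample, with an adjusted p of up to 0.138.

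*Ddx11*, a DNA helicase of sister chromatid cohesion, had 3.61, 4.86 and 4.81 in control and 3.64, 3.96 and 4.34 in treated cells. Control sample 1 and treated sample 1 were both low, and the log2 difference of -0.45 did not pass the threshold (limma adjusted p = 0.301). It was -0.86 without control sample 1 (limma adjusted p = 0.0124) and did not pass without any other sample, where it ran from -0.63 without treated sample 3 (limma adjusted p = 0.187) to -0.23 without control sample 2 (limma adjusted p = 0.64). *Ddx51*, of the large ribosomal subunit, had 9.37, 9.35 and 9.16 in control and 9.13, 9.27 and 8.45 in treated cells, with treated sample 3 well below the others (log2 difference -0.35, limma adjusted p = 0.177). The fifth gene with a wide spread was *Ddx60*.

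**Figure D5:**
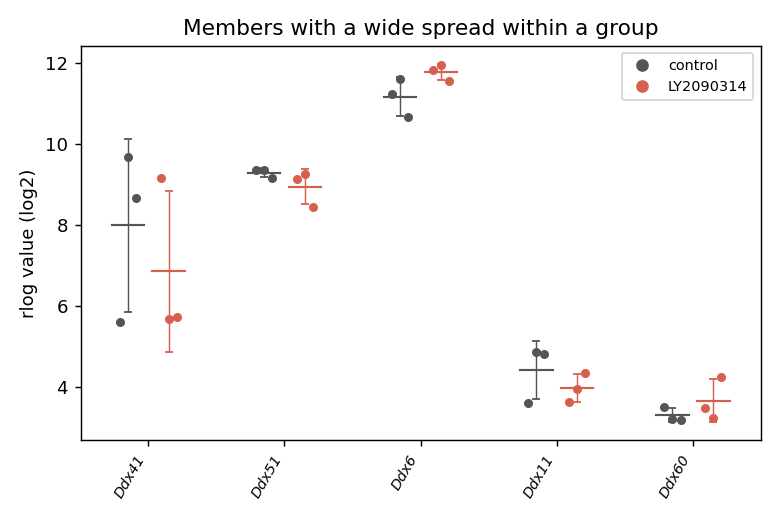
The rlog values (y axis, log2) of the 5 members with an SD over 0.3 in a group, by sample (points), with the group mean as a horizontal line and the SD as a bar, n = 3. *Ddx41* has high and low samples in both groups, up to 4.08 apart, whereas the samples of the other 4 genes are closer together.

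RNA helicases of other names were counted on a list of their own. Of 21 measured, 9 fell, 3 rose and 9 did not pass the threshold, with a median log2 difference of -0.154. The shares were 42.9% lower and 14.3% higher, against 25.3% and 24.8% of all genes. *Mov10*, a helicase that restrains retroelements, had rlog values of 8.71, 8.73 and 8.71 in control and 7.93, 7.61 and 7.76 in treated cells, a log2 difference of -0.95 (limma adjusted p = 9.26e-05). *Helz2*, an interferon-inducible coactivator, had 9.57, 9.50 and 9.41 in control and 10.30, 10.37 and 9.96 in treated cells, a log2 difference of 0.72 (limma adjusted p = 0.000983). These were the largest changes past the threshold on the list, with *Ifih1* next among the falls and *Ighmbp2*, at 0.41 (limma adjusted p = 0.00196), next among the rises. Of the eIF4A helicases, which are DEAD box proteins under another name, *Eif4a1* fell by 0.24 and *Eif4a3* by 0.23 (limma adjusted p = 0.00586 and 0.0111). *Eif4a2* had a log2 difference of 0.48 that did not pass the threshold (limma adjusted p = 0.236).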

How the data were processed

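The authors deposited log2 expression values (rlog, made with DESeq2 1.30.1) for 41444 genes. Per the labels and the study's methods, stranded libraries of polyadenylated RNA were sequenced in paired ends, quantified with Salmon and aligned with STAR to GRCm38 (GENCODE vM24). Which samples and options entered the rlog step is not given in the sources used here. No read counts are given, so depth is unknown, and no count test or counting interval was possible.

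Of 12 columns, 6 were matched to a group by name, and 6 whose names combine Cre and LY were not used. The planned fit took the ERT2 columns, and Cre columns only if their names gave their group. It was made over the 6 matched columns. Genes with a mean of at least 3 were tested in limma 3.58.1 under R 4.3.3 (mean-variance trend, Benjamini-Hochberg adjustment over 11536 genes, threshold 0.05), after tests on simulated data. Exact two-sided permutation tests used scipy 1.17.1. Exon overlaps came from GENCODE vM21 of GRCm38.

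The members and lists were chosen with earlier results of these data known. Roles were assigned from textbook knowledge. Named were the up to 3 largest changes past the threshold without overlap in each role, the 5 largest rises and falls, the paralog pairs, and on other lists the 2 largest changes in each direction. Other members are named with their difference or within a range of differences. Not given above are *Dhx34* (-0.18), *Ddx25* (-0.15), *Dhx36* (-0.11), *Ddx23* (-0.11) and *Ddx42* (-0.06), which did not pass the threshold. Alternatives were a fit without the trend, no limit or a limit of 5 on the mean, median centring, quantile normalization, leaving out each sample, stricter thresholds and, added after seeing the data, merging into 1 sample both treated columns that share a library number.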

Additional observations from a re-analysis of the deposited data

How the results depend on the processing

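Depth is unknown, and rlog values understate changes of genes with few reads. Of the 22 members past the threshold, 16 (4 higher, 12 lower) passed in all 6 fits that left out a sample. The same count over all genes is not given here, so the stability of member calls cannot be set against it. *Ddx20*, *Ddx24*, *Ddx52*, *Ddx54*, *Dhx15* and *Dhx57* failed in at least 1. In these fits 16 to 24 of 50 members and 4734 to 6228 genes (41.0% to 54.0% of those tested) passed. Requiring also a log2 difference of at least 1 left 693 genes (6.01%) and 1 of 50 members, *Dhx58*. The median over members was -0.16 after median centring and between -0.137 and -0.109 with a sample left out. Counting the samples with a shared library number as 1 left 17 of 50 members and 4936 genes (42.8%). With a threshold of 0.01, 16 of 50 members passed, beside 34.9% of all genes. Large subunit calls went from 5 to 3 with no limit on the mean, with the shared number as 1 sample and at 0.01, spliceosome calls from 3 to 1 at 0.01, and translation calls from 1 to 2, with *Ddx6*, with a limit of 5. Signs turned for *Dhx30* (-0.091, quantile normalization) and *Dhx8* (-0.0251 centred, -0.0092 with the shared number as 1 sample, -0.055 to 0.0391 with a sample left out). They also turned for *Ddx39* minus *Ddx39b*, 0.0008 with the shared number as 1 sample and -0.109 to 0.0199 with a sample left out. The cause was not tested. No paired analysis was possible because the numbers in the column names could not be tied to those of the titles. Count-based fits were not run, since no counts are given.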

Other observations

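Proteins that bind or activate DEAD and DEAH box helicases were counted on a list of 37 measured cofactors. Of these, 11 fell, 7 rose and 19 did not pass the threshold, with a median log2 difference of -0.074. The shares, 48.6% past the threshold and 29.7% lower, were near those of all genes, 50.1% and 25.3%, and 18.9% were higher against 24.8%. *Gemin4*, the partner of *Ddx20* in the SMN complex, had rlog values of 10.36, 10.38 and 10.52 in control and 9.55, 9.86 and 9.87 in treated cells, a log2 difference of -0.66 (limma adjusted p = 0.000737). *Gpatch4*, of the G-patch proteins that activate DEAH box helicases, had 10.03, 9.90 and 10.10 in control and 9.47, 9.56 and 9.57 in treated cells, a log2 difference of -0.48 (limma adjusted p = 0.000606). These were the largest falls on the list.

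The largest rises on the list were those of *Gpatch2* and *Rbm5*. *Gpatch2*, a G-patch protein, had 8.77, 8.69 and 8.56 in control and 9.59, 9.58 and 9.61 in treated cells, a log2 difference of 0.92 (limma adjusted p = 2.44e-05). *Rbm5*, a splicing regulator, had 10.55, 10.37 and 10.25 in control and 11.30, 11.12 and 10.78 in treated cells, a log2 difference of 0.68 (limma adjusted p = 0.0037). Treated samples of *Gpatch2* were nearly identical, whereas those of *Rbm5* were spread but still above all control samples.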
